A study of Mus musculus with 12 samples.

Results

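The 6 mouse genes described here are Gadd45a, Gadd45b and Gadd45g, which encode the growth arrest and DNA damage-inducible proteins, and Phlda1, Phlda2 and Phlda3, which encode small proteins with a pleckstrin homology domain. They were found by gene symbol among 50559 genes counted in liver RNA, and all 6 were listed. Gadd45g and Phlda1 were selected on measured values, namely their lower counts in both compound-treated groups than in untreated mice on the same diet; the other 4 were added as their family relatives. The values of all 6 genes in those 2 contrasts are therefore given as a description, with no test.

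Every mouse was of the C57BL/6N strain, and each of the 4 groups held 3 livers sequenced as separate libraries, 12 in all. The NCD group ate normal chow and the HFD group a high-fat diet with 60% of its energy from fat, each for 12 weeks. The HFD+C1 and HFD+C2 groups ate the same high-fat diet and were injected into the peritoneum with compound C1 or C2 at 5 mg/kg per day for the same 12 weeks; the series title describes both compounds as inhibitors of CYP4A, a group of fatty acid hydroxylases. The labels give neither the structures of the compounds nor whether the NCD and HFD mice received vehicle injections, so an effect of injection and one of compound cannot be told apart. The titles number the 3 samples of a group as biological replicates.

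Gadd45 proteins are small acidic proteins without enzymatic activity of their own. They bind the kinase MAP3K4, which feeds the p38 and JNK stress kinases, and the cell-cycle proteins PCNA, p21 and CDK1 with cyclin B1. Their transcripts are short-lived and are induced by stress, with p53 driving Gadd45a, NF-kB and TGF-beta signalling Gadd45b, and cytokines Gadd45g. The Phlda proteins bind phosphoinositides at membranes: Phlda1 (TDAG51) is induced by growth factor and stress signalling, Phlda2 is an imprinted gene known from the placenta, and Phlda3 is a p53 target that keeps the kinase AKT off the membrane.

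The promoter windows of 5 of the 6 genes were found by symbol in RefSeq (GRCm38.p6), each running from 250 bases before to 50 after the annotated start; Phlda1 had no entry. Those of Gadd45g and Gadd45b are shown because these relatives differ in level and in their values under the compounds. Capitals mark matches to 9 motifs searched on both strands: an AP-1 site TGANTCA, a cAMP response element TGACGTCA, a STAT site TTCNNNGAA, an E-box CACGTG, a CHOP and ATF4 element TGATGCAA, an NF-kB site GGACTTTCC, a forkhead box O site GTAAACA, and the TATA box, spelled TATAAA. The last motif was the CCAAT box. The Gadd45g window lies at chr13:51846425-51846724 on the plus strand and the Gadd45b window at chr10:80929841-80930140 on the plus strand.
Gadd45g: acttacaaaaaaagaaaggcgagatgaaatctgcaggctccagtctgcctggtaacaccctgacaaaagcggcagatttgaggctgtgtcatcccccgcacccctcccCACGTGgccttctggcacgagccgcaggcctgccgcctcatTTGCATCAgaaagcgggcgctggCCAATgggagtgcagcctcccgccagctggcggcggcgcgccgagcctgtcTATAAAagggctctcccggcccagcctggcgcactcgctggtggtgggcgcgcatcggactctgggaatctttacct
Gadd45b: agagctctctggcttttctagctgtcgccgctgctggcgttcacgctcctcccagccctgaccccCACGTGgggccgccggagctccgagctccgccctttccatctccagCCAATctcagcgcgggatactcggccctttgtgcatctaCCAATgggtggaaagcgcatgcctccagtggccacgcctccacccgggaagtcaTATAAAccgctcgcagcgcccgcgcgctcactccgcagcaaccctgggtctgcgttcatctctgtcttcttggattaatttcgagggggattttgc

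In both windows a TATA box preceded the start, by 27 bases in Gadd45g and 46 bases in Gadd45b, and both held an E-box, at 142 and 185 bases before the start. The CHOP and ATF4 element, read on the minus strand at 101 bases before the start, was found in Gadd45g and not in the other 4 windows. Of all 32851 windows of this length, 0.895% held that element, 7.15% the E-box, 13.6% the TATA box and 37.4% the CCAAT box. The AP-1, cAMP, STAT, NF-kB and forkhead letters were in 0 of the 5 windows, against 7.81%, 1.79%, 8.3%, 0.344% and 3.65% of all windows. Phlda3, whose window is 71.7% G or C, held none of the 9. A match is a run of letters and no evidence of binding.

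Depth was uneven. The shallowest library, NCD replicate 2, held 4281210 reads in genes and the deepest, HFD replicate 1, held 32124248. Reads outside genes made up 58.2% of NCD replicate 1, 47.1% of the first HFD+C2 library and 27.3% to 40.7% of the other 10. Levels below are CPM, a gene's count relative to all reads in genes of its library, scaled by TMM, a method that removes composition differences between libraries. A count of 3, taken as the floor, equals 0.701 CPM in the shallowest library and 0.0934 CPM in the deepest before TMM. The tissue label was checked with hepatocyte markers: 5 of 6 were matched by symbol, albumin among them, Tf was not, and 0 of the 5 were at 0 in any library, with summed levels from 27730 CPM in NCD replicate 1 to 146500 CPM in HFD+C2 replicate 2.

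In HFD livers, levels per kilobase of exon placed Phlda1 first at 34.3 CPM per kb, then Gadd45g at 15, Gadd45a at 2.12, Phlda3 at 1.12, Gadd45b at 0.299 and Phlda2 at 0.129 CPM per kb. Exon lengths were taken from GENCODE M21. Phlda1 and Gadd45g were thus the abundant members of their families, while Gadd45b and Phlda2 lay close to the limit of counting. 5 members passed the filter of a mean of 10 counts in every comparison; Phlda2 passed in none.

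**Figure D1:**
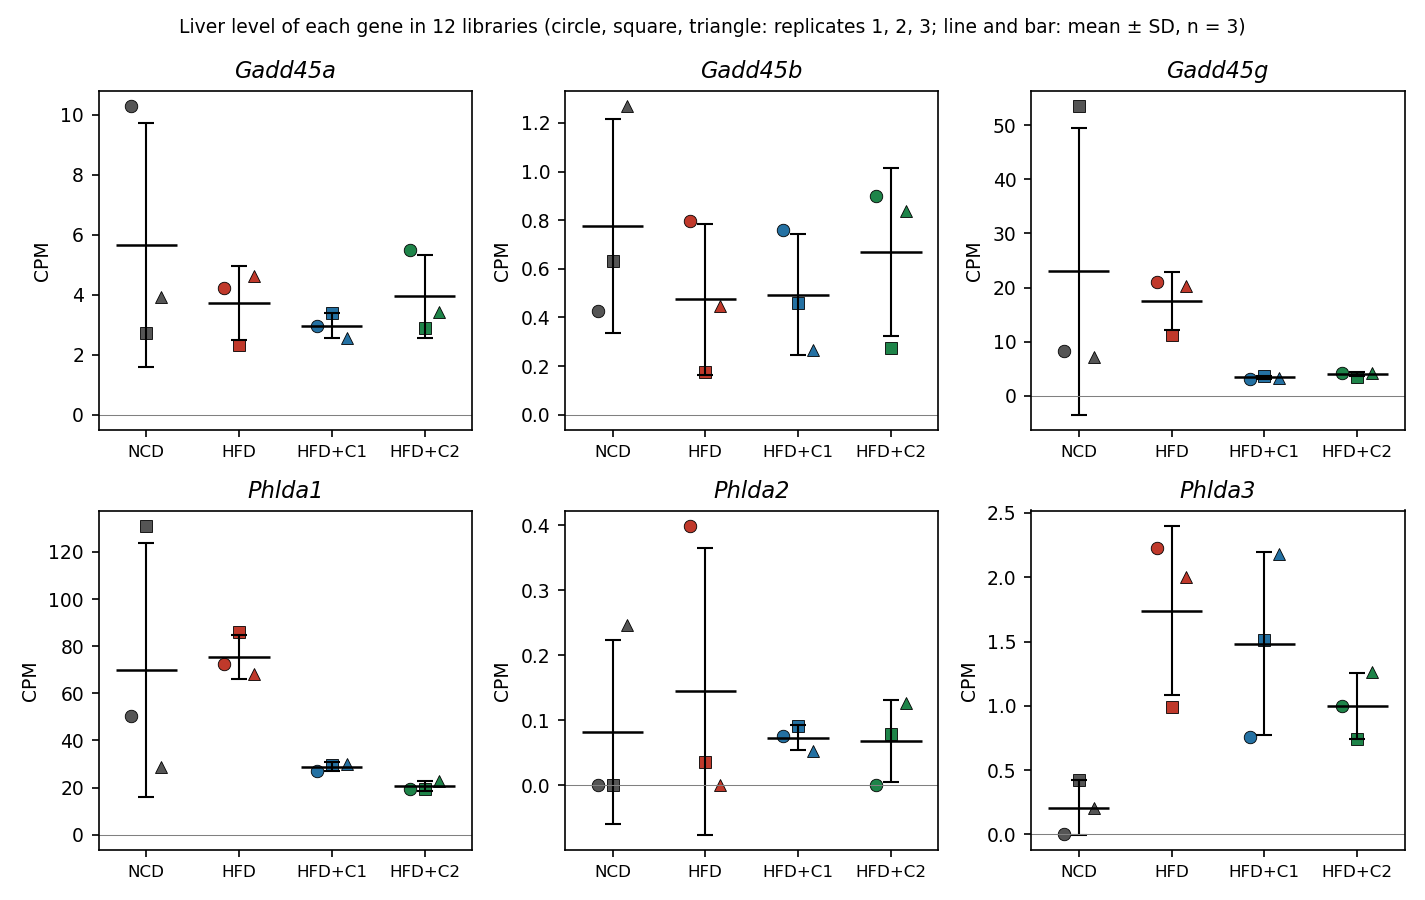
Level of each of the 6 genes in CPM (vertical axis, linear) in the 4 groups; symbols are the 3 libraries of a group, lines the mean and bars the SD. Gadd45g and Phlda1 are low and tight in both compound groups and spread widely in NCD, while Phlda3 is low in NCD and higher in the 3 groups on the high-fat diet.

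Gadd45g (chr13:51846678-51848468, plus strand, GRCm38), which encodes the cytokine-induced member of its family, was the member with the largest difference under the compounds. Its level was 21.1, 11.3 and 20.2 CPM in HFD replicates 1 to 3. It was 3.11, 3.71 and 3.30 CPM in HFD+C1 and 4.15, 3.49 and 4.11 CPM in HFD+C2. All 6 compound-treated livers lay below the lowest HFD liver, as groups lay fully apart for 12.4% (C1) and 13.6% (C2) of all genes tested, and the 2 compound groups overlapped each other. The fitted log2 difference from HFD was -2.38 under C1 (a 5.21-fold lower level) and -2.17 under C2 (4.52-fold lower), values that chose the gene and carry no test here.

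In chow livers Gadd45g did not have one level. It was 8.25, 53.6 and 7.11 CPM in NCD replicates 1 to 3 (97, 254 and 173 counts), with the highest value in replicate 2, the shallowest library. The other chow livers lay below the HFD range and above the compound ranges. The group means ran from 23.0 ± 26.5 CPM in NCD through 17.5 ± 5.43 in HFD and 3.92 ± 0.373 in HFD+C2 to 3.37 ± 0.306 in HFD+C1 (SD, n = 3). In that order NCD and HFD did not differ beyond their spread, nor did HFD+C2 and HFD+C1.

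Phlda1 (chr10:111506286-111508645, plus strand, GRCm38), induced by growth factor and stress signals, was also lower in both compound groups, from a higher level. It was at 72.6, 86.0 and 68.1 CPM in HFD replicates 1 to 3, at 26.9, 29.7 and 30.1 CPM in HFD+C1, and at 19.5, 19.4 and 23.0 CPM in HFD+C2. The 3 groups were separate from one another, HFD+C2 lowest; 12.4% of all genes lay fully apart for C1 against HFD, 13.6% for C2 against HFD and 12% for C2 against C1. The fitted log2 difference from HFD was -1.39 under C1 (2.62-fold lower) and -1.88 under C2 (3.68-fold lower), again a description.

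In NCD replicates 1 to 3 Phlda1 was at 50.2, 131 and 28.7 CPM. Replicate 2 was again the highest of the 12 libraries, above every HFD liver, and replicate 3 fell within the HFD+C1 range. The means were 75.6 ± 9.32 CPM in HFD, 69.8 ± 53.7 in NCD, 28.9 ± 1.71 in HFD+C1 and 20.6 ± 2.09 in HFD+C2 (SD, n = 3). Of these neighbours, HFD and NCD overlapped, as did NCD and HFD+C1.

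**Figure D2:**
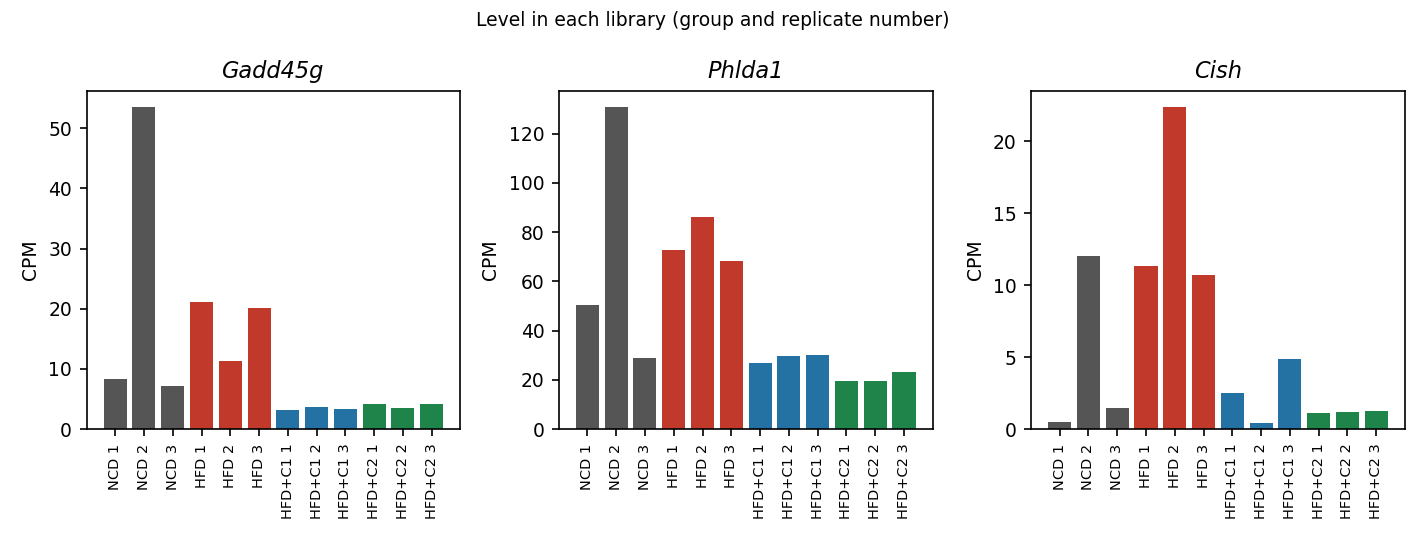
Bars give the level in CPM (vertical axis from 0) of Gadd45g, Phlda1 and Cish in each of the 12 libraries, coloured by group. NCD replicate 2 stands at 53.6 CPM for Gadd45g and 12.0 CPM for Cish, apart from the other chow livers, and all 6 compound-treated livers lie below all 3 HFD livers in each panel.

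Cish, which encodes a STAT5-induced inhibitor of cytokine signalling, came from a list of 9 STAT feedback genes and was high in the HFD livers and in NCD replicate 2. It was at 0.510, 12.0 and 1.44 CPM in NCD replicates 1 to 3, 11.3, 22.4 and 10.7 CPM in HFD livers, 2.50, 0.412 and 4.90 CPM with C1, and 1.10, 1.21 and 1.22 CPM with C2. Among the 8 tested genes of that list it alone passed the edgeR test (quasi-likelihood, Benjamini-Hochberg adjusted) for C2 against HFD (log2 change -3.65, SE 0.33, adjusted p 0.00753), lower in all 3 livers, a call lost when HFD replicate 1 or the third HFD+C2 library was left out and in 1 fit of all 12 libraries (edgeR adjusted p 0.827). 0 of the 8 passed for C1 against HFD. Socs2, another feedback inhibitor, was at 1.06, 0.915 and 1.65 CPM with C1, 3.85, 2.11 and 6.45 CPM with C2, 3.56, 12.4 and 3.75 CPM on the diet alone, and 9.44, 6.54 and 7.97 CPM in NCD. NCD replicate 2 was thus the lowest chow liver for Socs2, as it was for Bcl6, a transcriptional repressor (6.11 CPM beside 20.3 and 43.6 CPM), and for the growth factor gene Igf1 (267 CPM beside 491 and 440 CPM), unlike for Cish.

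Gadd45a (chr6:67035096-67037457, minus strand, GRCm38), the p53-induced member, did not follow Gadd45g. It was at 10.3, 2.74 and 3.94 CPM in NCD replicates 1 to 3, 4.22, 2.34 and 4.64 CPM in HFD livers, 2.95, 3.39 and 2.55 CPM with C1, and 5.51, 2.90 and 3.44 CPM with C2. All 4 groups overlapped. The highest values of the NCD and HFD+C2 groups came from replicate 1 of each, the libraries with the largest share of reads outside genes. Its log2 differences from HFD were -0.33 under C1 and 0.06 under C2. The gene overlaps E230016M11Rik on the opposite strand, which had 2 to 10 counts a library; since strand use in the counting is not stated, reads of the pair cannot be told apart. A like limit holds for Phlda1, which overlaps Gm28592, a long non-coding RNA gene on the opposite strand. Gm28592 was not found by symbol among the genes counted, so any of its reads counted for Phlda1 cannot be told apart.

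Gadd45b (chr10:80930073-80932204, plus strand, GRCm38), the NF-kB and TGF-beta-induced member, was near the floor, with 3 to 31 counts a library. Its levels were 0.425, 0.633 and 1.27 CPM in NCD, 0.798, 0.177 and 0.448 CPM in HFD livers, 0.758, 0.458 and 0.266 CPM with C1, and 0.901, 0.274 and 0.838 CPM with C2. Every pair of groups overlapped. The log2 differences from HFD were 0.09 under C1 and 0.46 under C2. They were 0.72 and 1.08 without HFD replicate 1, and -0.31 and 0.07 without HFD replicate 2.

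Phlda2 (chr7:143501545-143503150, minus strand, GRCm38), the imprinted member, was at or under 3 counts in 10 of the 12 libraries. The exceptions were NCD replicate 3 with 6 counts and HFD replicate 1 with 12 counts. No difference between groups was detectable at this depth.

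Phlda3 (chr1:135766119-135769136, plus strand, GRCm38), which restrains AKT, had a pattern of its own. It was counted 0, 2 and 5 times in NCD replicates 1 to 3, or 0, 0.422 and 0.205 CPM. In HFD it was at 2.23, 0.992 and 2.00 CPM, in HFD+C1 at 0.758, 1.51 and 2.18 CPM, and in HFD+C2 at 1.00, 0.744 and 1.26 CPM. All 9 livers on the high-fat diet lay above all 3 chow livers; of all genes tested, 37.2% in HFD, 36.2% in HFD+C1 and 30.5% in HFD+C2 also lay fully apart from NCD. The 3 high-fat groups overlapped one another. The means were 1.74 ± 0.656 CPM in HFD, 1.48 ± 0.712 in HFD+C1, 1.00 ± 0.256 in HFD+C2 and 0.209 ± 0.211 in NCD (SD, n = 3). The log2 differences from HFD were -0.26 under C1 and -0.81 under C2.

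The diet comparison, HFD against NCD, was not used to choose the genes, although its HFD livers also served in the choice. Gadd45g and Phlda1, whose high values in these livers helped to select them, are therefore described with no test here and in the comparisons that follow. The same edgeR test called 0 of the other 3 tested members, beside 6.03% of all 13864 genes tested; at an unadjusted p under 0.05 edgeR gave 4002 genes and 1 of the 3, Phlda3. Phlda3 had a log2 change of 3.29 (SE 0.87, 95% interval 1.31 to 5.27, edgeR adjusted p 0.0594) and was higher in all 3 HFD livers. With 0, 2 and 5 counts in NCD, it passed the filter only through the high-fat livers, here and in the other comparisons with NCD, so a gene admitted this way had to differ. Its edgeR interval, p-values and calls in fits with that filter are therefore no support for a difference. Group totals of 144 and 7 counts gave a ratio of 10.1, with an exact interval of 4.80 to 25.7 that covers counting error only. Phlda3 was called without NCD replicate 1 (log2 change 2.78, in a fit that called 1838 genes), in a single fit of all 12 libraries (3.31), by DESeq2 (3.32) and with no filter on low counts (3.43), and its adjusted p ranged from 0.00244 to 0.243 over all alternatives.

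For Gadd45g the diet difference depended on a single chow liver and on the fit. With all libraries it was -0.30 on the log2 scale, or 0.33 with the replicate number as a block in the fit. Without NCD replicate 2 it was 1.23. Phlda1 likewise stood at 0.14 and, without NCD replicate 2, at 0.98. Gadd45a was at -0.62 (95% interval -1.72 to 0.48) and Gadd45b at -0.75 (95% interval -2.37 to 0.87). The value of Gadd45a was 0.076 without NCD replicate 1.

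**Figure D3:**
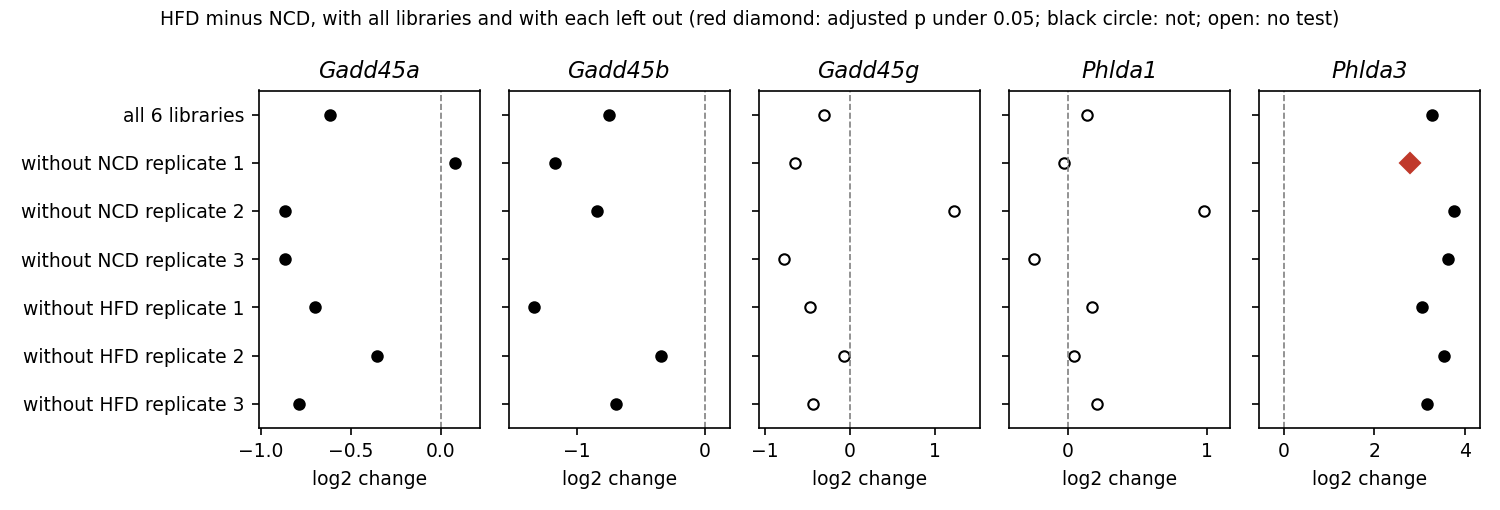
Horizontal axes give the edgeR log2 change of HFD minus NCD for 5 genes, and rows the libraries used; each axis has its own scale, a red diamond marks an adjusted p under 0.05, and open circles have no test. Gadd45g and Phlda1 move to 1.23 and 0.98 when NCD replicate 2 is left out, while Phlda3 lies between 2.78 and 3.77 when any of the 6 libraries is left out.

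The 2 compounds were given at the same dose for the same time, so their groups were compared directly; both served in the choice of Gadd45g and Phlda1. HFD+C2 against HFD+C1 gave 0 of the other 3 members called, beside 0% of 13229 genes; 608 genes, none of the 3 among them, had an unadjusted p under 0.05 in edgeR, and DESeq2 called 3 genes and 0 members. Phlda1 was lower under C2 in all 3 livers, by a log2 difference of -0.48; 12% of all genes lay fully apart in this comparison. Gadd45g differed by 0.22, with overlapping groups. The 95% intervals of the others were -0.23 to 1.04 for Gadd45a, -0.87 to 1.64 for Gadd45b and -1.51 to 0.42 for Phlda3. None of these values shows that the compounds act alike on these genes.

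Against chow, the compound groups bring the same libraries whose low values selected Gadd45g and Phlda1. Gadd45g lay below every chow liver in both compound groups, by a log2 difference of -2.70 in HFD+C1 and -2.48 in HFD+C2, where 36.2% and 30.5% of all genes also lay fully apart; without NCD replicate 2 these were -1.16 and -0.93. Phlda1 differed by -1.26 in HFD+C1, where the groups overlapped, and by -1.73 in HFD+C2, and by -0.42 and -0.90 without NCD replicate 2. Of the other 3 tested members edgeR called 0 in HFD+C1, beside 3.4% of 13534 genes, and 0 in HFD+C2, beside 1.6% of 13691 genes. Phlda3 alone among these 3 had an unadjusted p under 0.05 in edgeR in each, beside 3783 of all genes tested in HFD+C1 and 3065 in HFD+C2. Phlda3 was at 3.03 in HFD+C1 (SE 0.93, edgeR adjusted p 0.0901) and 2.48 in HFD+C2 (SE 0.90, edgeR adjusted p 0.156). Since Phlda3 passed the filter only through the high-fat livers, p-values and calls from filtered fits are no support for a difference from chow. Among other settings, it was called in HFD+C1 without NCD replicate 1 (2.51, in a fit that called 1583 genes), with no filter (3.09), in the 12-library fit (3.06) and by DESeq2 (3.06), and in HFD+C2 in the 12-library fit (2.51). Gadd45a was at -0.96 and -0.53 and Gadd45b at -0.69 and -0.25 in HFD+C1 and HFD+C2. Without NCD replicate 1 the values of Gadd45a were -0.25 and 0.19. Gadd45b in HFD+C2 ranged from -0.96, without NCD replicate 1 and HFD+C2 replicate 1 together, to 0.40, without NCD replicate 3.

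For the contrasts that chose the genes, the shares called among all genes were 0.0524% of 13358 for C1 against HFD and 0.0222% of 13503 for C2 against HFD.

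**Figure D4:**
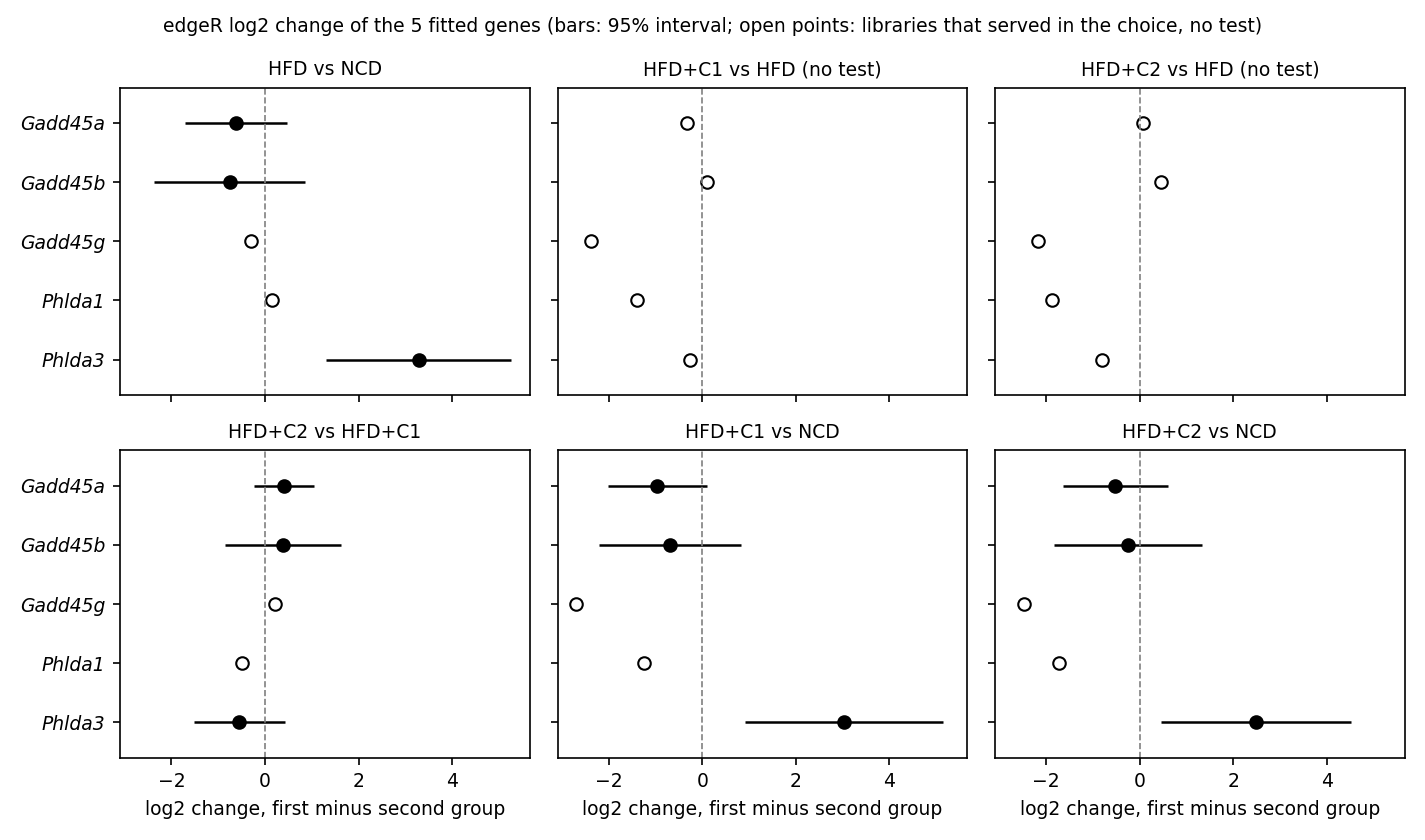
Points give the edgeR log2 change of 5 genes (horizontal axis) in 6 comparisons, with bars for the 95% interval; open points without bars rest on contrasts or libraries that served in the choice and have no test. Phlda3, which passed the filter only through the high-fat livers, is at 3.29, 3.03 and 2.48 against NCD, and no adjusted p of a filled point passed 0.05.

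The partners of Gadd45 and the stress kinases were taken as a list of 13 genes. Cdkn1a, which encodes p21, rose on the diet, from 5.61, 4.22 and 4.23 CPM to 16.8, 10.3 and 15.7 CPM (log2 change 1.61, SE 0.26, edgeR adjusted p 0.0221) and was the 1 call among 12 tested genes; the call was lost without NCD replicate 3, HFD replicate 1 or HFD replicate 3. 0 genes of this list passed for either compound against HFD. Cdkn1a was at 9.81, 8.56 and 10.2 CPM with C1 and 7.06, 7.44 and 6.49 CPM with C2. Each of these values lay below the lowest HFD liver, where 12.4% (C1) and 13.6% (C2) of all genes tested lay fully apart. Map3k4, the kinase that Gadd45 proteins activate, ranged over 15.9 to 21.2 CPM in HFD livers, 17.8 to 19.1 CPM with C1 and 15.7 to 18.8 CPM with C2. The list medians for C1 and C2 against HFD were 0.01 and -0.09, beside 0.01 and 0.02 over all genes.

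Of 20 p53 targets, a group to which Gadd45a and Phlda3 also belong, 19 were tested for the diet. Cdkn1a and Ccng1, a cyclin-related p53 target, were the 2 called by edgeR, both higher, with a list median of 0.14 beside -0.02 over all genes. Ccng1 rose from 27.4, 22.8 and 25.6 CPM to 48.5, 42.1 and 54.5 CPM (log2 change 0.95, SE 0.18, edgeR adjusted p 0.0305), a call lost without NCD replicate 3 or any 1 of the HFD libraries. Both were also called in HFD+C1 against NCD, Cdkn1a at 1.02 (edgeR adjusted p 0.0494) and Ccng1 at 0.92 (edgeR adjusted p 0.0340), each lost without NCD replicate 3 or any 1 of the HFD+C1 libraries and Cdkn1a also without NCD replicate 2 or with median-ratio scaling (edgeR adjusted p 0.0525). Under C1 and C2 against HFD, 0 of 20 were called, with medians of -0.03 and -0.08.

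The integrated stress response list, of genes driven by ATF4 and CHOP, had 12 tested genes and 4 diet calls, 3 higher and 1 lower, with a list median of 0.82 beside -0.02. The summed level went against that median, at 327, 211 and 270 CPM in NCD and 201, 170 and 199 CPM in HFD. Most of the sum was Atf4 itself, at 282, 171 and 220 CPM in NCD and 133, 114 and 136 CPM in HFD, which did not pass the test. Nupr1, a stress-induced chromatin protein, rose from 0.510, 1.05 and 1.03 CPM to 5.88, 2.52 and 6.11 CPM (log2 change 2.51, edgeR adjusted p 0.0317). Chac1, which degrades glutathione, rose by 2.13 (edgeR adjusted p 0.0411) and Ddit3, which encodes CHOP, by 0.79 (edgeR adjusted p 0.0413). Asns, asparagine synthetase, went the other way, from 14.6, 5.06 and 8.63 CPM down to 0.798, 0.39 and 0.448 CPM (log2 change -4.10, edgeR adjusted p 0.00618). Each of the 3 higher genes lost its call without NCD replicate 3, HFD replicate 1 or HFD replicate 3, Chac1 and Ddit3 also without HFD replicate 2, and Asns lost it without HFD replicate 3.

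Against NCD, HFD+C1 gave 3 calls in that list: Asns at -2.64, Fgf21 at 2.48 and Nupr1 at 1.89 (edgeR adjusted p 0.0286, 0.0437 and 0.0495), each lost without NCD replicate 3 or any 1 of the HFD+C1 libraries and Nupr1 also without NCD replicate 2 or with median-ratio scaling (edgeR adjusted p 0.0501). HFD+C2 gave 1, Nupr1 at 2.29 (edgeR adjusted p 0.0491), which was lost in each of the 6 fits that left out a library. Under C1 and C2 against HFD, 0 of 12 were called, with a median of -0.27 in each.

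Immediate-early genes, which like Gadd45g and Phlda1 are rapidly induced and short-lived, were lower in HFD than in chow for Egr1 and Zfp36, 2 of 16 tested. Egr1, a zinc-finger transcription factor, was down from 7.57, 9.49 and 16.4 CPM to 2.16, 1.70 and 1.63 CPM (log2 change -2.61, edgeR adjusted p 0.00927), and Zfp36, which destabilises mRNA, from 30.3, 28.7 and 29.0 CPM to 16.5, 17.5 and 18.2 CPM (log2 change -0.74, edgeR adjusted p 0.0402). Both calls were lost when any 1 of the HFD libraries was left out, and that of Zfp36 also without NCD replicate 3 or with no filter (edgeR adjusted p 0.119). Egr1 was called against NCD in HFD+C1 at -2.0 and in HFD+C2 at -1.82 as well (edgeR adjusted p 0.0364 and 0.0483), lost without NCD replicate 3 or any 1 of the compound libraries and, in HFD+C2, also without NCD replicate 2. For the compounds against HFD, 0 of 16 were called, with list medians of -0.22 and -0.45 beside 0.01 and 0.02 over all genes. Summed over the list, HFD livers had 174 to 179 CPM, those given C1 144 to 193 CPM and those given C2 93.3 to 152 CPM. In NCD replicate 2, where Gadd45g and Phlda1 were highest, it was 199 CPM, the lowest of the 3 chow livers, whose range was 199 to 272 CPM.

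Genes of the ERK feedback list, which report growth factor signalling, gave 0 calls in any of the 6 comparisons, with 7 or 8 of 10 genes tested; the median was -0.24 for C1 and 0.06 for C2 against HFD. In the PI3K and AKT list, the pathway that Phlda3 restrains, Irs2 was the 1 call of 13 for the diet. Irs2, an insulin receptor substrate, was down from 20.7, 11.4 and 14.7 CPM to 3.66, 3.30 and 2.16 CPM (log2 change -2.36, edgeR adjusted p 0.00893), a call lost without HFD replicate 1 or HFD replicate 3, and was at -2.17 in HFD+C1 against NCD (edgeR adjusted p 0.0168), lost without NCD replicate 3 or HFD+C1 replicate 1 or 3. Among 10 tested NF-kB targets Nfkb2, a subunit of that factor, rose on the diet by 1.41 (edgeR adjusted p 0.0291), lost without NCD replicate 3 or any 1 of the HFD libraries, and was called in HFD+C1 against NCD at 1.52 (edgeR adjusted p 0.0344), lost without NCD replicate 3 or any 1 of the HFD+C1 libraries.

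Of 13 glucocorticoid and fasting genes, 3 were called for the diet. Pdk4, which holds back glucose oxidation, fell by 1.86 on the log2 scale (edgeR adjusted p 0.00994), Zbtb16, a glucocorticoid-induced repressor, fell by 1.27 (edgeR adjusted p 0.0413), and Mt1, a metallothionein, rose by 1.70 (edgeR adjusted p 0.0446). Each was lost without HFD replicate 1 or HFD replicate 3, Zbtb16 and Mt1 also without NCD replicate 2 or 3, and Zbtb16 also without HFD replicate 2. In 1 fit of all 12 libraries neither Zbtb16 nor Mt1 was called (edgeR adjusted p 0.0687 and 0.150). Pdk4 was also called in HFD+C1 and HFD+C2 against NCD (-1.75 and -2.28, edgeR adjusted p 0.0482 and 0.0353), and Zbtb16 in HFD+C1 against NCD (-1.71, edgeR adjusted p 0.0167). Socs2 of the STAT list was called there too (-2.74, edgeR adjusted p 0.00952). Each of these 4 calls was lost when any 1 of the compound libraries was left out, those of Pdk4 also without NCD replicate 2 or 3 and that of Zbtb16 without NCD replicate 3. 0 genes of these lists other than Cish were called for either compound against HFD.

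Over the 12 libraries Gadd45g and Phlda1 had a Spearman rho of 0.75 with each other, and 0.67 without NCD replicate 2; both were chosen for being low in the same 6 libraries, so part of this is fixed by the choice. Of the other 9 pairs of the 5 countable members the highest was 0.51, for Gadd45a and Gadd45b. The lowest was -0.34, for Gadd45b and Phlda1. These values describe libraries that share diet group and depth, and no test was made.

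Among the 10132 or 10133 genes compared, the 3 most like Gadd45g over the 12 libraries were Rgs3 (rho 0.88), which encodes a regulator of G protein signalling, Paxx (0.82), a DNA end-joining factor, and Ftl1-ps2 (0.78), a ferritin light chain pseudogene whose reads may belong to its parent gene. Those most like Phlda1 were Foxa2 (0.92), a liver transcription factor, Id3 (0.91), an inhibitor of helix-loop-helix factors, and 1700017B05Rik (0.88). For Phlda3 they were Ifngr2 (0.98), a subunit of the interferon gamma receptor, Mettl27 (0.97) and Vwa8 (0.97), an ATPase of mitochondria. For Gadd45a they were 0610005C13Rik (0.90), Hbb-bt (0.89), a globin, and Parl (0.87), a mitochondrial protease, and for Gadd45b Unc50 (0.85), Zfp451 (0.85) and Rnf186 (0.83). Without NCD replicate 2 these 15 values ranged from 0.72 to 0.98.

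Markers of other cells also differed between some groups. In bulk liver, fewer cells of a type and less RNA per cell cannot be told apart. The 6 Kupffer cell markers summed to 131 to 172 CPM in HFD livers, 211 to 280 CPM in those given C1 and 166 to 404 CPM in those given C2, where Gadd45g and Phlda1 were low. The lowest C2 value, in replicate 3, lay within the HFD range. In NCD the sum was 142 to 251 CPM. It was 167 CPM in the chow liver where both genes were highest and 142 CPM in NCD replicate 3, where both were lowest among chow livers. Clec4f, a defining Kupffer cell marker, was at 63.6 to 72.2 CPM in HFD livers, 96.9 to 124 CPM with C1 and 67.3 to 190 CPM with C2; none of the 6 was at 0 in any library. Against HFD all 6 had a higher level under each compound, with medians of 0.75 (C1) and 0.79 (C2) beside 0.01 and 0.02 over all genes. 5 of the 6 had an unadjusted p under 0.05 in edgeR under each compound, and 0 passed the adjustment. Of all genes tested, 1035 of 13358 under C1 and 931 of 13503 under C2 had an unadjusted p under 0.05 in edgeR. The 4 erythroid markers were all lower under C1 against HFD (median -0.51, 2 with an unadjusted p under 0.05) and 2 of 4 under C2, and the 6 endothelial markers were all higher under C2 (median 0.30, 2 with an unadjusted p under 0.05) and 5 of 6 under C1. Of 3 tested lymphocyte markers, 2 were higher under each compound, with medians of 0.40 (C1) and 0.86 (C2). Under C1 0 of them and under C2 2 had an unadjusted p under 0.05 in edgeR. 0 of these lists passed edgeR's adjustment under either compound. In the diet comparison, where Phlda3 did not pass, Colec11 of the stellate cell list and Lyve1 of the endothelial list rose on the diet (log2 changes 0.99 and 2.20, edgeR adjusted p 0.0294 and 0.0361), each 1 of 6 tested in its list and each lost without NCD replicate 3 or any 1 of the HFD libraries. The summed level was 103 to 133 CPM in NCD and 148 to 159 CPM in HFD for the 6 stellate markers, and 67.0 to 86.4 CPM in NCD and 70.7 to 92.7 CPM in HFD for the 6 endothelial markers. Colec11 was also called in HFD+C1 and HFD+C2 against NCD (0.79 and 1.15, edgeR adjusted p 0.0486 and 0.0491), Lyve1 in HFD+C2 (2.84, edgeR adjusted p 0.0257) and Clec4f in HFD+C1 (0.94, edgeR adjusted p 0.0482); each was lost without NCD replicate 3 or any 1 of the compound libraries, and Colec11 in HFD+C2 also without either of the other NCD libraries or with median-ratio scaling (edgeR adjusted p 0.0504). The part of these cells in the members' values was not tested. The 4 adipocyte markers summed to at most 0.935 CPM in any library.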

How the data were processed

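The authors deposited 3 tables of read counts per gene, named as normalized but holding whole numbers with unequal totals; their HFD columns agree in every cell (0 differ), and 0 value columns were left unmapped. Per the submitters' processing notes, Trimmomatic 0.39, STAR 2.7 and DESeq2 were used with mm10; the counting program, annotation and strand use are not given in the sources used here. The 4 rows naming no gene, 27.3% to 58.2% of reads, stayed out of library sizes and tests. The test was the edgeR 4.0.16 quasi-likelihood test (R 4.3.3) within the 6 libraries compared, on genes averaging 10 counts or more there, with TMM scaling, no covariates, and Benjamini-Hochberg adjustment over all genes tested. A gene was called at an adjusted p under 0.05. Levels printed per library were scaled by TMM over all 12. The test was also run on counts simulated from the fitted mean and dispersion of each gene. The simulation set no library apart from its group, so it cannot vouch for the calls made here.

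The members and lists were chosen with earlier results of these data known. The text names every member, every list gene called (at most 4 a list and comparison), and the 3 genes of highest Spearman rho with each member. Atf4, Bcl6, Igf1, and Socs2, Cdkn1a, Map3k4 and Clec4f in groups where they were not called, were added after their values were seen. Alternatives were DESeq2 1.42.0, median-ratio scaling, no filter, the replicate number as a block, 1 fit of all 12 libraries, and leaving out each library. P-values set the difference between groups against the spread between animals, 3 a group, with that spread estimated partly from all genes. Floors and count intervals cover counting error only.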

Additional observations from a re-analysis of the deposited data

How the results depend on the processing

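For the diet, 836 genes were called, 4493 with no filter, 2411 in 1 fit of all 12 libraries, 2298 by DESeq2, 483 with the replicate block, and 23 to 1838 with 1 library left out. For C1 against HFD the 7 calls became 206, 0, 77 and 36 in those settings, in the same order, and 2 to 102 with 1 library left out. For C2 against HFD the 3 calls became 152 with no filter, 0 in the 12-library fit and 35 by DESeq2, and 0 to 27 with 1 library left out. HFD+C2 against HFD+C1 gave 162 calls with no filter, 3 by DESeq2, and 0 to 1 with 1 library left out. HFD+C1 against NCD gave 460 calls, then 3697, 2150, 2144 and, with the replicate block, 1655, and 11 to 1583 with 1 library left out. HFD+C2 against NCD gave 219, then 3194, 2628, 1425 and 785, 2 to 188 with 1 library left out, and 1273 without NCD replicate 1 and HFD+C2 replicate 1 together. The cause was not tested. With no filter the median of all genes shifted by 0.18, 0.11 and 0.13 on the log2 scale in the comparisons of HFD, HFD+C1 and HFD+C2 with NCD.

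Of the 3 tested members outside the choice, 0 were called in any comparison, and every call in another setting was Phlda3, which passed the filter only through the high-fat livers. For the diet it was 1 call with no filter, in the 12-library fit and by DESeq2, where 12.7%, 17.2% and 16.6% of all genes were called, and 0 to 1 with 1 library left out (13.7% of all genes without NCD replicate 1). For HFD+C1 against NCD it was 1 call in those settings (10.4%, 15.5% and 15.8% of all genes), 1 with the replicate block (log2 change 3.18, 12.2%), and 0 to 1 with 1 library left out (12.1% without NCD replicate 1). For HFD+C2 against NCD it was 1 in the 12-library fit (18.9%). HFD+C2 against HFD+C1 gave 0 in every setting run.

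The direction turned in 13 of 332 alternative values of a member. 5 of these were in the contrasts that chose the genes, where the values are small: Gadd45b under C1 (-0.31 without HFD replicate 2, -0.38 without HFD+C1 replicate 1), Gadd45a under C2 (-0.18 without HFD replicate 2, -0.24 without HFD+C2 replicate 1) and Phlda3 under C1 (0.073 without HFD+C1 replicate 1). The other 8 were Gadd45a for the diet (0.076) and in HFD+C2 against NCD (0.19), both without NCD replicate 1; Phlda1 for the diet without NCD replicate 1 (-0.03) or 3 (-0.24); Gadd45b in HFD+C2 against NCD without NCD replicate 3 (0.40) or HFD+C2 replicate 2 (0.15); and Gadd45g for the diet without NCD replicate 2 (1.23) and with the replicate block (0.33). The replicate numbers were not taken to pair the livers: in no comparison were all 3 correlations of same-numbered livers' deviations over 0.1, the threshold used. They ranged from -0.22 to 0.39 and were closest to it in HFD+C2 against NCD (0.205, 0.138 and 0.0417). With the replicate block, the diet calls of Chac1, Nfkb2, Lyve1, Ddit3 and Zfp36 were lost (edgeR adjusted p 0.0541, 0.0541, 0.0606, 0.0746 and 0.0746). With 1 library left out, the log2 changes of the members spanned -0.87 to 0.076 (Gadd45a), -0.77 to 1.23 (Gadd45g) and -0.24 to 0.98 (Phlda1) for the diet, and -0.84 to 0.19 (Gadd45a) and -0.66 to 0.40 (Gadd45b) in HFD+C2 against NCD. Phlda3 in HFD+C2 against NCD had no value without HFD+C2 replicate 3, nor Gadd45b against NCD for HFD and HFD+C1 without NCD replicate 3, where they missed the filter. Of 379 alternative values of the named list genes, 144 lost the call and 0 turned direction. Scaling by library size alone, chosen after seeing the data, moved 0 of 24 group means by more than 1 SD. Depth limits Phlda2, Gadd45b and, in chow, Phlda3.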
